A study of Bos taurus with 12 samples.

Results

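The genes described here were the interleukins, chemokines, tumour necrosis factor (TNF) superfamily ligands and the receptors of all 3. They were found by symbol, as every gene whose name begins with IL, CCL, CCR, CXCL, CXCR, TNFSF or TNFRSF followed by a number, with IL5RA, IL10RB, CXCL12, CXCL13 and CXCR4 left out. Of the 11830 genes named in the deposited data 86 fitted, and they carried 589 of the 196275 listed CpG cytosines, called sites here. None of the 1227 listed windows of 500 bases was annotated to one of them (0 of 1227), and none overlapped one of these genes or held one of their sites.

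Whole blood was taken from 12 dairy cows kept under the same farm conditions, and DNA methylation was read by enzymatic conversion and sequencing. The Mastitis Susceptible Group (MSG) was made up of 6 cows that were culled during the following year for mastitis complications, which were not known at sampling. The Mastitis Resilient Group (MRG) held 6 cows with a similar spread of ages that were still in the herd 1 year later. The labels name no strain, genotype or treatment beyond these groups, and each sample is 1 cow, numbered within its group in the order of the records.

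Interleukins and chemokines are small secreted proteins with which immune cells and epithelia signal to each other. Interleukins bind paired receptor chains that mostly signal through JAK and STAT proteins, chemokines draw leukocytes along a gradient through G protein-coupled receptors, and TNF superfamily ligands cluster their receptors to control survival, death and the activation of NF-kB. In the udder such signals bring neutrophils into the milk during infection. Methylation of a cytosine next to a guanine is a chemical mark on DNA, and when it lies at a promoter it often accompanies a silent gene.

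All listed sites had been selected by the authors for a difference between these same cows. In the authors' deposited table the smallest absolute difference among the 589 sites was 25.1 percentage points and the largest q-value 0.00993. A second test of the same cows is therefore not independent evidence, and a mean over sites of one direction differs because of how the sites were chosen. Such means are given below as a description, with no test. Sequencing depth was not used. In whole blood a different mix of white cells and a different methylation per cell cannot be told apart, and no RNA was measured. In enzymatic sequencing a thymine in a cow's own DNA is read like an unmethylated cytosine. Values near 0, 50 and 100% made up much of the data: 19.7% of cow values at these sites were exactly 0, 26.3% lay from 35 to 65% and 29.0% were 90% or higher. Over all listed sites the shares were 21.7, 25.7 and 27.3%. The part of sequence variants and of the cell mix in the differences was not tested.

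Among these genes 316 sites were higher in MSG and 273 lower, which is 53.7% higher against 52.7% of all listed sites. The difference of means was 33.2 percentage points at the median site, and it ranged from 14.2 to 61.1 points. The spread between cows of one group was of the same order, with a median SD of 28.0 points. When every listed site was tested with limma on percent methylation, no site of these genes passed an adjusted p of 0.05 (0 of 589). The background was 0% of all listed sites, and the lowest adjusted p at these genes was 0.0781. At an unadjusted p under 0.05 limma gave 318 sites (54.0%), close to the background of 51.9%. The exact permutation test over cows gave 0 sites after adjustment, with a lowest adjusted p of 0.110, beside a background of 0% of all listed sites. Before adjustment it gave 211 sites (35.8%), next to a background of 35.5%. At 10 sites (1.70%) the values of the 2 groups did not overlap, fewer than the 2.36% of all listed sites.

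A cow stood at exactly 0 at 486 of the 589 sites. Among the 103 sites with no cow at 0, tested together with all other such listed sites, 71 passed limma at an adjusted p of 0.05, 41 of them higher and 30 lower in MSG. That was 68.9%, below the background of 73.1%, and the lowest adjusted p was 0.0230. Calls in this set of sites at single genes, given below, are to be read against that share. The call at single sites therefore turned on whether sites with a cow at 0 shared the test. Within this set it mostly followed the size of the difference, because limma's standard errors were much alike. The smallest difference called was 26.3 points and the largest not called 28.6 points. Such a call does not show how alike the cows of a group were. The 71 sites belonged to 33 genes, of which 18 were called only higher, 8 only lower and 7 in both directions.

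The sites were spread unevenly over the genes. CCL1, IL20RA, TNFRSF11A, IL21R and IL15 held 249 sites between them (42.3%), and 24 genes held 1 site each. By the majority of their sites 42 genes were higher in MSG, 37 were lower and 7 were tied. Among the 27 genes with 5 or more sites only 4 had a single direction: TNFRSF13C (9 of 9 higher), CXCL5 (7 of 7 higher), IL22 (6 of 6 higher) and IL1B (5 of 5 lower). All 125 CpGs listed on both strands had the same sign on both. The sites stood at 464 CpGs, which formed 345 runs of sites with gaps under 1 kb, and 19 runs mixed directions. Most runs held a single CpG and could not mix, so this count does not measure how far neighbours shared a direction.

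**Figure D1:**
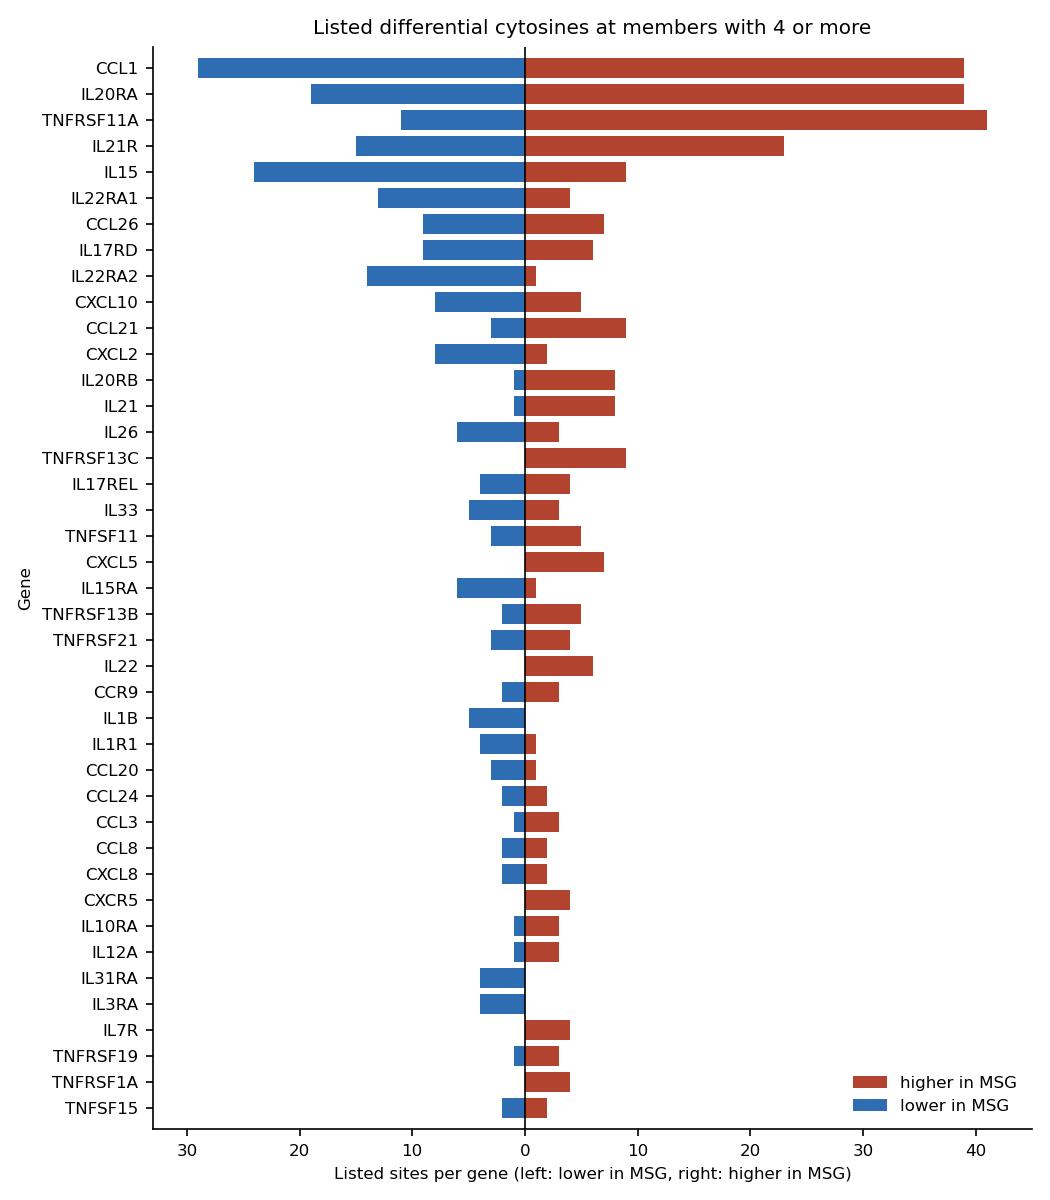
Number of listed sites per gene for the 41 genes with 4 or more sites, with sites higher in MSG drawn to the right of 0 and sites lower in MSG to the left. CCL1, IL20RA and TNFRSF11A have the longest bars, and TNFRSF13C, CXCL5 and IL22 have sites on the higher side only.

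By place, 339 sites (57.6%) were distal intergenic, 183 (31.1%) intronic and 57 (9.68%) in promoters, against 58.2%, 34.9% and 5.44% of all listed sites. The annotation counts as promoter whatever lies within 3 kb of a transcription start on either side. A site belongs to the gene with the nearest start, and 43 of the 589 lay within another gene. The median distance to the start was 17.7 kb, against 45.2 kb for all listed sites, and 156 sites (26.5%) lay inside the coordinates listed for their own gene.

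The interleukin genes held 306 sites in 43 genes, of which 144 were higher and 162 lower in MSG (47.1% higher). Their ligands and inhibitors differed by family. The IL-1 family, which starts and tunes fever and acute inflammation, had 6 higher and 13 lower sites at its 5 ligands. IL1B, which is made by activated monocytes and macrophages, had 5 sites, all lower. The mean over them ran from 0 to 74.2% in MSG cows and from 49.0 to 97.1% in MRG cows, with means of 33.7% ± 29.1 and 72.8% ± 18.0 (SD, n = 6 each). The cows overlapped. IL33, an alarmin released by damaged epithelium, was divided, with 3 higher and 5 lower sites. Both sites of IL1A, the cell-bound form, were lower, IL18 had 2 higher sites and 1 lower, and IL36G had 1 higher site.

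The inhibitors of this family, which block its receptors or capture its ligands, had 1 higher and 5 lower sites in 3 genes. IL1RN, the receptor antagonist, had 1 site in each direction, and the decoy receptor IL1R2 had 3 lower sites.

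IL18BP binds and neutralises IL18, a relative of IL1B that raises interferon gamma. It had 1 site, annotated to its promoter but 2.40 kb from the start and just past the end of this short gene (ENSBTAG00000027676, chromosome 15, 51640336 to 51642143, build ARS-UCD1.2). The site at chr15:51642736 ranged from 46.2 to 80.0% in MSG with a median of 63.6%, and from 81.8 to 100% in MRG with a median of 92.9%. The means were 64.9% ± 14.5 and 93.5% ± 7.45 (SD, n = 5 each, since 1 cow per group had no value). Every MSG value lay below every MRG value, and the adjusted p of limma was 0.120 over all sites and 0.05005 over sites with no cow at 0, just above the threshold.

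Cytokines that use the common gamma chain, the shared receptor subunit of IL2, IL7, IL15 and IL21, had 18 higher and 29 lower sites at 4 ligand genes. IL15 sustains natural killer and memory T cells. Its 33 sites (ENSBTAG00000018200, chromosome 17, 16050989 to 16143452) were 9 higher and 24 lower, and 17 of the 23 sites upstream of the start were lower. Over the 24 lower sites MSG cows lay between 11.3 and 70.5% with a median of 55.8%, and MRG cows between 52.1 and 91.6% with a median of 84.7%. The group means came to 49.7% ± 22.9 and 80.4% ± 14.6 (SD, n = 6). MRG replicate 2 stood alone at 52.1%, and without that cow the MRG values began at 79.1%, above every MSG cow.

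At the 9 higher sites of IL15 MSG cows averaged 73.0% ± 28.7 and MRG cows 48.1% ± 27.5 (SD, n = 6), and the cows overlapped widely, from 35.9 to 97.5% and from 4.27 to 87.7%. That difference of 25 points fell to 16.2 without MRG replicate 4. Of the 7 IL15 sites with no cow at 0, limma called 1 higher and 4 lower in that set of sites.

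IL21, made by T follicular helper cells to drive B cells, had 8 higher sites and 1 lower. The higher sites lay between 83.0 and 94.9% in MSG cows and between 0 and 87.0% in MRG cows. All MSG cows were thus highly methylated there, while MRG cows spread over most of the scale. The only IL21 site with no cow at 0 was the lower one, and limma called it in that set of sites. IL7, a growth factor of lymphocytes, had 3 sites, all lower, with means of 59.8% ± 13.3 in MSG and 88.6% ± 8.61 in MRG (SD, n = 6). IL2 had 1 site in each direction.

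The IL-10 family links immune cells to epithelia, and IL22 in particular acts on epithelial barriers. IL22 (ENSBTAG00000015407, chromosome 5, 45523409 to 45529263) had 6 sites, 3 inside the gene and 3 upstream of it, all higher in MSG. Their mean ran from 51.2 to 96.7% in MSG with a median of 89.6%, and from 28.0 to 82.8% in MRG with a median of 42.5%. The group means were 83.2% ± 16.5 and 51.5% ± 23.4 (SD, n = 6). MSG replicate 6 was the lowest of its group, and the other 5 MSG cows lay between 80.8 and 96.7%. Of the 5 IL22 sites with no cow at 0, all 5 were called higher by limma in that set of sites, where the background was 73.1%.

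IL26, which lies 19.2 kb from IL22, had 3 higher and 6 lower sites, so the direction seen at IL22 did not run on through its neighbour. IL24, another ligand of the family, had 1 higher site, described with the sites whose groups did not overlap. In the IL-12 family, which steers T helper cells, IL12A had 3 higher sites and 1 lower. IL27, which restrains as well as starts T cell responses, had 1 higher site, and IL12RB2, a receptor chain for IL-12, had 2 lower ones. Over the higher sites of IL12A MSG cows averaged 66.2% ± 23.2 and MRG cows 26.4% ± 19.8 (SD, n = 6), with ranges of 27.8 to 95% and 6.25 to 58.2% that overlapped. Outside these families IL16, a T cell attractant, had 1 higher site and 2 lower, IL34, which acts on the receptor of macrophages, had 2 higher and 1 lower, and IL32 had 1 higher.

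The interleukin receptors held 204 sites in 22 genes, 101 higher and 103 lower. The receptors of the IL-10 family were the largest group, with 55 higher and 48 lower sites in 5 genes. Without IL20RA the other 45 sites were 16 higher and 29 lower.

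IL20RA is the chain that pairs with IL20RB to bind IL19, IL20 and IL24 on epithelial cells. It had 58 sites (ENSBTAG00000015638, chromosome 9, 74969097 to 75000389), 39 higher and 19 lower, and the direction followed position. Upstream of the start 15 of 16 sites were lower, inside the gene all 16 were higher, and past the gene end 22 of 26 were higher. Over the 39 higher sites MSG cows lay between 47.4 and 87.9% with a median of 83.0%, and MRG cows between 3.36 and 74.0% with a median of 41.6%. The means were 77.9% ± 15.4 and 40.5% ± 23.3 (SD, n = 6). MSG replicate 3 alone reached into the MRG range: the other 5 MSG cows stood at 79.4% or more.

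Over the 19 lower sites of IL20RA the MSG cows lay between 1.44 and 49.8% with a median of 30.9%, and the MRG cows between 37.4 and 85.9% with a median of 61.8%. The means were 26.0% ± 19.8 and 61.7% ± 22.9 (SD, n = 6), and the groups overlapped. Here MSG replicate 3 was the highest of its group.

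IL22RA2 lies 53.7 kb from IL20RA on the same chromosome (ENSBTAG00000017000, 75054085 to 75074492) and encodes a soluble decoy that captures IL22. Of its 15 sites 14 were lower, including all 8 upstream of the start and all 3 inside the gene. Over the 14 lower sites MSG cows ran from 0 to 44.6% with a median of 17.6%, and MRG cows from 12.5 to 92.2% with a median of 59.0%. The means were 18.3% ± 17.3 and 55.5% ± 26.1 (SD, n = 6). MSG replicate 3 was again the highest of its group, and the cows of the groups overlapped. At the 1 IL22RA2 site with no cow at 0 the direction was the opposite, with 94.5% ± 5.05 in MSG and 69.0% ± 31.2 in MRG (SD, n = 6), and limma did not call it.

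IL22RA1, the signalling receptor chain for IL22, had 4 higher and 13 lower sites (ENSBTAG00000001100, chromosome 2, 128753716 to 128780202). The lower sites ran from 0 to 49.6% in MSG with a median of 36.9%, and from 48.9 to 94.7% in MRG with a median of 57.3%. The means were 28.3% ± 22.5 and 67.3% ± 20.4 (SD, n = 6), and the groups met at their edges. The 4 promoter sites gave 29.8% ± 24.0 in MSG and 66.0% ± 19.9 in MRG (SD, n = 6). Both IL22RA1 sites with no cow at 0 were higher in MSG, and limma called 1 of them, so the majority at this gene also turned when sites with a cow at 0 were left out.

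IL20RB had 8 higher sites and 1 lower (ENSBTAG00000008299, chromosome 1, 132167385 to 132207262). The higher sites ran from 66.7 to 100% in MSG with a median of 98.0%, and from 16.2 to 95.6% in MRG with a median of 71.3%. The means were 91.6% ± 13.1 and 61.4% ± 30.1 (SD, n = 6), with wide overlap. IL10RA, a receptor chain for the anti-inflammatory cytokine IL10, had 3 higher sites and 1 lower. IL22, its receptor chain and its decoy were therefore listed in different directions: higher at IL22, mostly lower at IL22RA1 and IL22RA2. At sites with no cow at 0 this contrast was not seen, as those of all 3 genes were higher in MSG.

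**Figure D2:**
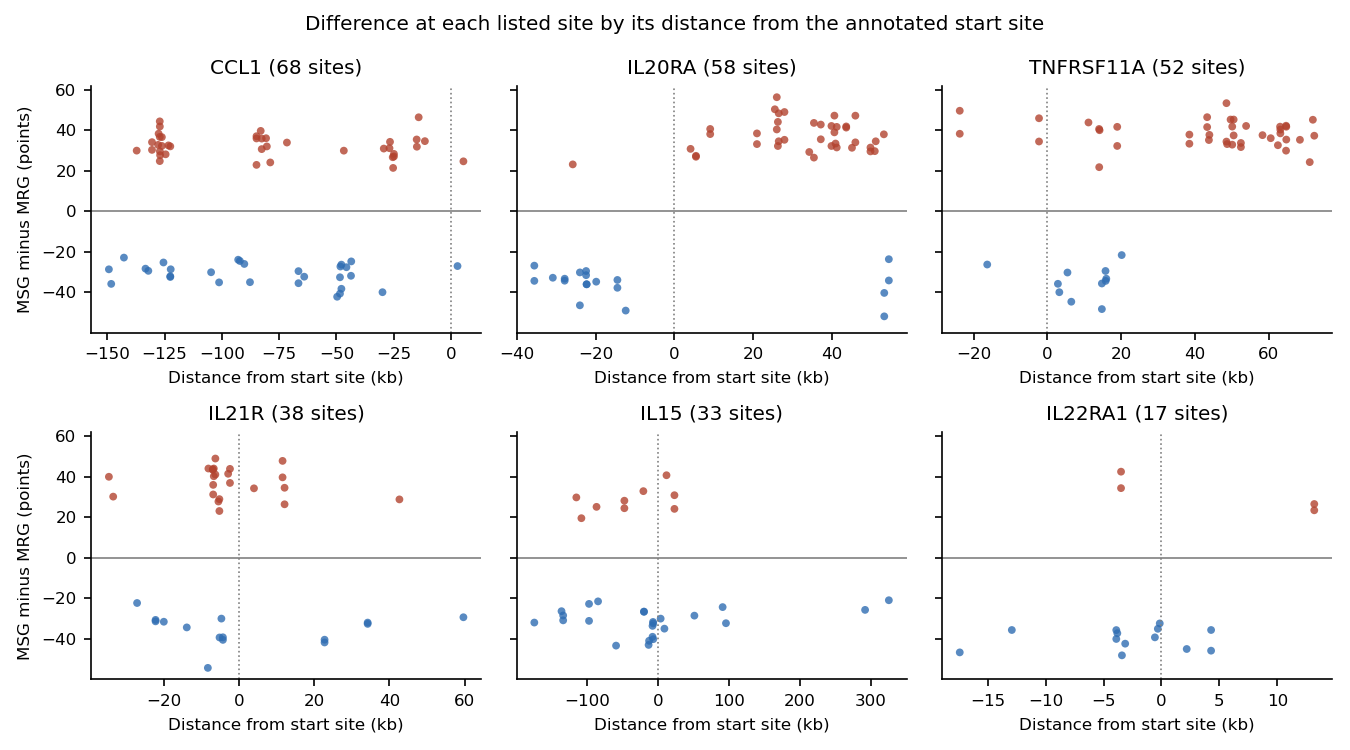
Difference of the group means (MSG minus MRG, percentage points) at each site against its distance from the transcription start (kb, negative upstream) for the 6 genes with the most sites. At IL20RA 15 of the 16 sites upstream of the start lie below 0 and all 16 sites inside the gene lie above 0, while CCL1 and IL21R have both directions upstream.

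The receptors for the common gamma chain cytokines had 29 higher and 24 lower sites in 5 genes. IL21R, the receptor for IL21, had 38 of these sites (ENSBTAG00000019567, chromosome 25, 24966488 to 25002153), 23 higher and 15 lower. By the coordinates listed with each site, both directions occurred upstream of the start (17 higher, 10 lower) and inside the gene (5 higher, 4 lower). The annotation held 2 models of IL21R and placed 25 sites in introns, while 9 sites lay inside those coordinates and 6 in another gene. Some sites counted here as upstream were therefore annotated as intronic. Over the 23 higher sites MSG cows ran from 12 to 88.3% with a median of 47.7%, and MRG cows from 6.13 to 35.5% with a median of 8.79%. The means were 49.8% ± 25.2 and 12.9% ± 11.2 (SD, n = 6). MRG replicate 3 alone stood above 11.2% in its group, and the lowest MSG cow, replicate 3, lay within the MRG range.

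Over the 15 lower sites of IL21R the ranges were 0 to 76.9% in MSG with a median of 40.1% and 61.3 to 85.3% in MRG with a median of 81.1%. The means were 43.1% ± 28.9 and 78.7% ± 8.88 (SD, n = 6). MSG cows were thus the more variable group at both kinds of IL21R site. The 3 promoter sites gave 51.6% ± 35.9 in MSG and 8.80% ± 21.5 in MRG (SD, n = 6). At these promoter sites the median MRG cow stood at 0.

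IL15RA presents IL15 to neighbouring cells. It had 1 higher and 6 lower sites (ENSBTAG00000006078, chromosome 13, 17538145 to 17554433), 5 of them inside the gene. The lower sites ran from 0 to 54.8% in MSG with a median of 33.9%, and from 0 to 97.5% in MRG with a median of 70.4%, so the groups overlapped from end to end. The means were 29.3% ± 19.0 and 61.8% ± 35.9 (SD, n = 6). The only IL15RA site with no cow at 0 was higher in MSG. IL7R had 4 sites, all higher, which lay 27.0 to 45.3 kb from the start, 1 of them inside the gene. Its ligand IL7 had only lower sites, all intergenic and 77.55 to 233 kb from the start. IL4R had 3 lower sites. IL2RB, a chain that IL2 and IL15 share, had 1 higher site.

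The receptors of the IL-17 family, which serve neutrophil recruitment and barrier defence, had 12 higher and 13 lower sites in 4 genes. IL17RD, which dampens growth factor signals as well as passing on IL-17 signals, held 15 of them, all inside the gene (ENSBTAG00000010999, chromosome 22, 43940324 to 44002737). Its 9 lower sites ran from 0 to 98.1% in MSG with a median of 45.1%, and from 52.4 to 99.4% in MRG with a median of 93.3%. The means were 46.4% ± 31.3 and 87.4% ± 18.0 (SD, n = 6). MRG replicate 3 stood apart at 52.4%, below the 87.3% of the next MRG cow.

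At the 6 higher sites of IL17RD the group means were 82.3% ± 7.71 and 56.7% ± 20.9 (SD, n = 6), with ranges of 72.3 to 92.9% and 29.9 to 82.6%. The 4 sites of IL17RD with no cow at 0 averaged between 93.0 and 100% in the MSG cows and between 25.3 and 91.9% in the MRG cows, so the averages did not overlap. These 4 sites were higher in MSG, the opposite of the majority at the gene, and limma called 1 of them in that set of sites. IL17REL, a relative in the same family, had 4 higher and 4 lower sites, and all 3 of its sites with no cow at 0 were called lower. IL17RA, the chain that most IL-17 receptors share, and IL17RE had 1 higher site each.

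IL3RA, the receptor chain for the myeloid growth factor IL3, had 4 sites, all lower (ENSBTAG00000049808, chromosome 3, 119480332 to 119499353). Their mean ran from 33.2 to 69.0% in MSG with a median of 48.1%, and from 63.3 to 98.6% in MRG with a median of 89.0%. The means were 50.3% ± 13.9 and 83.8% ± 15.3 (SD, n = 6). Only MSG replicate 3, the highest of its group at 69.0%, reached the MRG range. IL6ST, the shared gp130 chain, had 1 higher and 2 lower sites, and IL31RA, its relative, had 4 lower, which makes 1 higher and 10 lower for the group.

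The receptors of the IL-1 family had 4 higher and 8 lower sites in 5 genes. IL1R1, which transmits the IL-1 signal, had 1 higher and 4 lower sites, and IL1RL1, the receptor of IL33, had 3 lower. The accessory chain IL1RAP had 2 higher sites, IL1RL2 had 1 higher site and IL18RAP had 1 lower site. IL33 and its receptor were thus both mostly lower, with wide overlap of cows: the lower sites of IL1RL1 ran from 0 to 97.4% in MSG and from 0 to 100% in MRG.

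**Figure D3:**
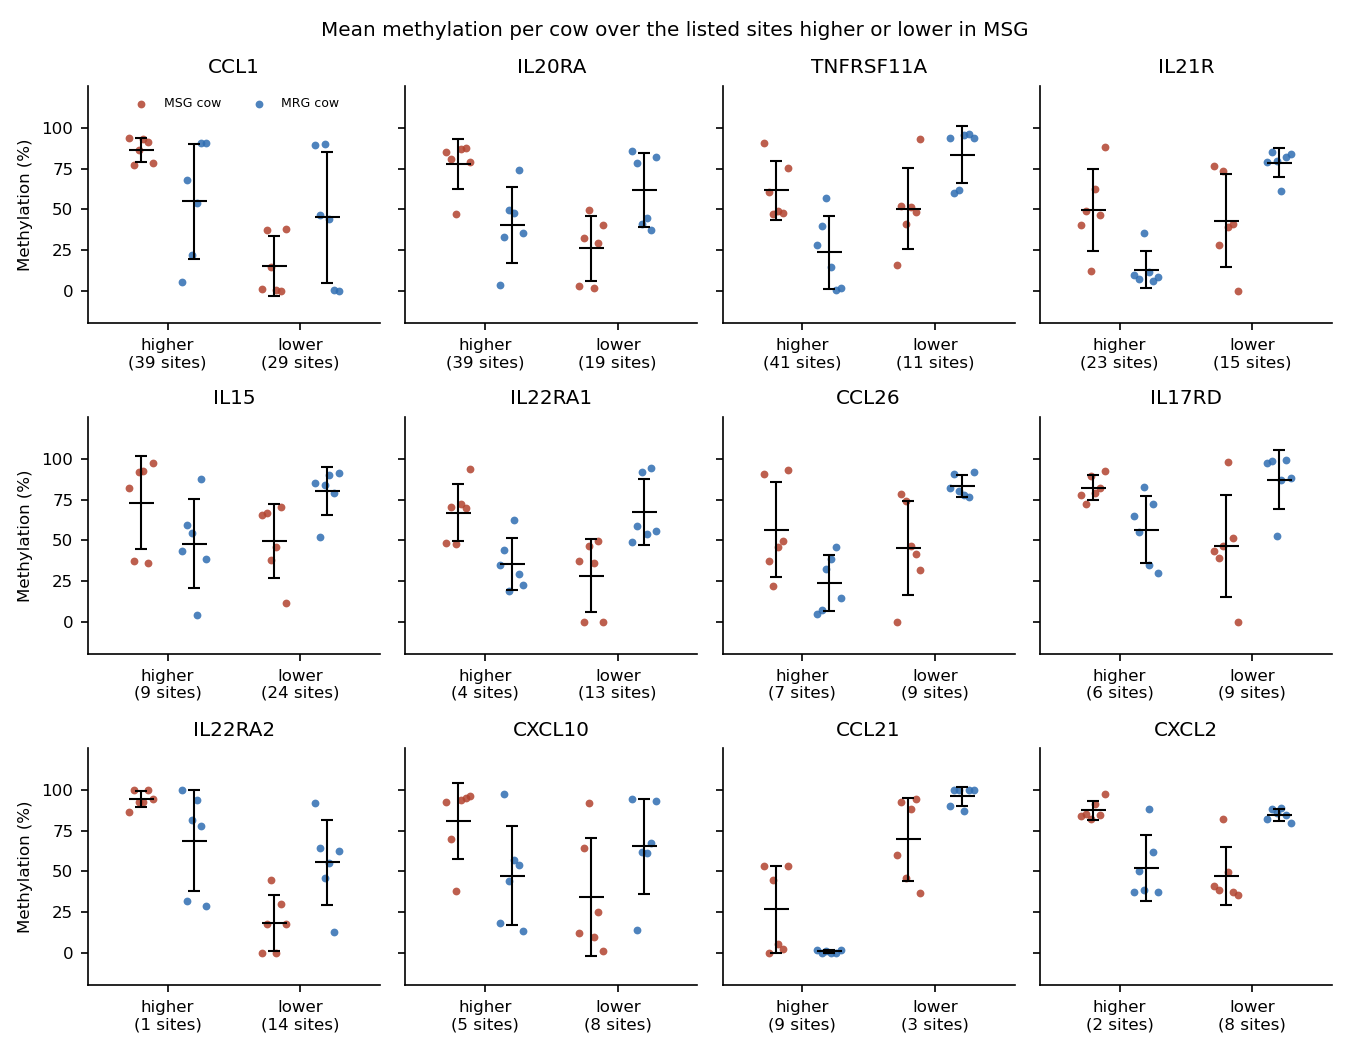
Mean percent methylation in each cow over the higher and, separately, the lower sites of the 12 genes with the most sites. Points are the 6 cows of each group and bars give the mean with its SD. The direction was set by sorting the sites, so the picture shows the spread: at CXCL2 the MRG cows bunch between 79.5 and 88.8% over the lower sites, and at CCL21 all MRG cows sit at or below 1.39% over the higher sites.

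The chemokines held 164 sites in 22 genes, 86 higher and 78 lower (52.4% higher). The CC chemokines, which mainly draw monocytes, lymphocytes and eosinophils, had 69 higher and 56 lower sites in 15 genes, and 30 higher and 27 lower without CCL1.

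CCL1, a ligand of CCR8 made by activated T cells, had the most sites of all the members, 68 (ENSBTAG00000008832, chromosome 19, 15782652 to 15786668). Of these 66 lay upstream, from 11.4 to 149 kb away from the start, in both directions (38 higher, 28 lower). Over the 39 higher sites MSG cows ran from 77.0 to 94.0% with a median of 89.0%, and MRG cows from 5.15 to 90.8% with a median of 60.8%. The means were 86.9% ± 7.39 and 55.0% ± 35.5 (SD, n = 6). The lower sites ran from 0 to 38.0% in MSG with a median of 7.66%, and from 0 to 90.5% in MRG with a median of 45.3%. MSG cows stayed near one end of the scale at both kinds of CCL1 site, while MRG cows covered nearly all of it.

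CCL21 guides dendritic cells and naive T cells into lymph nodes through CCR7. Its 12 sites (ENSBTAG00000010161, chromosome 8, 76080584 to 76081928) were 9 higher and 3 lower, and all 8 sites upstream of or inside the gene were higher. Over the 9 higher sites MSG cows ran from 0 to 53.4% with a median of 25.1%, and MRG cows from 0 to 1.39% with a median of 0.568%. MSG replicates 1, 3 and 6 stood between 44.9 and 53.4%, and the other 3 MSG cows between 0 and 5.21%, close to the MRG cows. The means of 26.5% ± 26.6 and 0.652% ± 0.721 (SD, n = 6) therefore describe 3 MSG cows set against the rest.

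The 3 lower sites of CCL21, all past the gene end, were the only ones of this gene with no cow at 0. MSG cows averaged 69.8% ± 25.6 there and MRG cows 96.2% ± 6.03 (SD, n = 6), and limma called 2 of them lower in that set of sites.

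CCL26, an eosinophil attractant, had 7 higher and 9 lower sites (ENSBTAG00000052510, chromosome 25, 34038531 to 34043143). Its 9 lower sites ran from 0 to 78.5% in MSG with a median of 44.3%, and from 76.8 to 92.4% in MRG with a median of 81.2%. The means were 45.5% ± 29.0 and 83.5% ± 6.71 (SD, n = 6), and only MSG replicate 2 reached the MRG range. CCL24, its neighbour at 22.8 kb and also an eosinophil attractant, had 2 sites in each direction. CCL20, which recruits cells through CCR6, had 1 higher site and 3 lower, and all 3 of its sites with no cow at 0 were called lower. CCL3, a monocyte attractant, had 3 higher sites and 1 lower.

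The other CC chemokines had 1 to 4 sites each. CCL2, the main monocyte attractant, had 2 higher sites and 1 lower, CCL8 had 2 in each direction, and CCL5, which draws T cells, had 2 higher. CCL17 and CCL22, which share the receptor CCR4, had 2 lower sites each. CCL11 and CCL25 had 1 higher site each, and CCL14 and CCL16 had 1 lower site each.

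The CXC chemokines had 17 higher and 22 lower sites in 7 genes. CXCL2 and CXCL5, which act on neutrophils, lie 47.3 kb apart on chromosome 6 and had opposite majorities. CXCL2 (ENSBTAG00000027513, chromosome 6, 88946402 to 88948465) had 2 higher and 8 lower sites, all upstream. Over the 8 lower sites MSG cows ran from 35.4 to 82.3% with a median of 39.9%, and MRG cows from 79.5 to 88.8% with a median of 85.4%. The means were 47.4% ± 17.8 and 84.9% ± 3.65 (SD, n = 6). MSG replicate 3 stood at 82.3%, inside the MRG range, and the other 5 MSG cows lay at 49.6% or lower.

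CXCL2 was also the gene with the most sites that no cow left at 0. All 9 such sites were called by limma in that set of sites, 2 higher and 7 lower, beside the background of 73.1%. Among them the promoter site at chr6:88945653 averaged 43.9% in MSG and 83.2% in MRG, with an adjusted p of 0.0273. CXCL5 had 7 sites, all higher, with ranges of 0 to 89.9% in MSG and 0 to 46.5% in MRG and means of 54.9% ± 33.4 and 21.0% ± 22.1 (SD, n = 6). CXCL8, the classic neutrophil attractant, had 2 sites in each direction, and CXCL3 had 1 higher site.

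CXCL10, CXCL9 and CXCL11 are induced by interferon and bind CXCR3 on T and natural killer cells. CXCL10 had 5 higher and 8 lower sites (ENSBTAG00000001725, chromosome 6, 90882124 to 90884526), and 11 of its 13 sites lay in introns of another gene. All 6 sites upstream of the start were lower, and both sites inside the gene were higher. The lower sites ran from 0.658 to 92.4% in MSG with a median of 18.6%, and from 14.1 to 94.9% in MRG with a median of 64.8%. The means of 34.1% ± 36.3 and 65.5% ± 29.3 (SD, n = 6) rest on cows that overlapped throughout. Among CXCL10 sites with no cow at 0 the majority was higher in MSG. CXCL9 had 3 sites, all lower, and CXCL11 had 1 lower site.

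The chemokine receptors had few sites, 17 in 7 genes, 11 higher and 6 lower (64.7% higher). CXCR5, which leads B cells and follicular helper T cells into follicles, had 4 sites, all higher, with ranges of 47.4 to 94.5% in MSG and 0 to 75% in MRG and means of 76.4% ± 16.3 and 41.2% ± 28.6 (SD, n = 6). CCR9, a receptor that homes lymphocytes to the gut, had 3 higher sites and 2 lower. At its higher sites all MRG cows stood at 0 and the MSG mean was 22.9% ± 37.6 (SD, n = 6). That mean came from MSG replicates 5 and 6, at 49.3 and 88.1%, and the other 4 MSG cows stood at 0 too. CXCR1, the neutrophil receptor for CXCL8, had 1 higher and 2 lower sites. CCR1, a receptor of CCL3 and CCL5, had 2 lower sites, and CCR3 and CXCR6 had 1 higher site each.

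The TNF superfamily ligands had 9 higher and 7 lower sites in 5 genes. TNFSF11 (RANKL), which drives osteoclasts, lymph node formation and mammary gland development, held 5 of the higher sites and 3 of the lower. At its higher sites MSG cows averaged 82.9% ± 15.1 and MRG cows 51.4% ± 23.2 (SD, n = 6), with ranges of 53.1 to 92.0% and 29.9 to 87.4%. All 6 of its sites with no cow at 0 were called by limma in that set of sites, 5 higher and 1 lower, again beside 73.1% of all such sites. TNFSF13B (BAFF), a survival factor of B cells, had 2 sites, both lower. TNFSF15 had 2 sites in each direction, and TNFSF4 and TNFSF8, which support T cells, had 1 higher site each.

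The TNF receptors had the highest share of higher sites of the 5 classes. They had 86 sites in 9 genes, 66 higher in MSG and 20 lower (76.7% higher, against 52.7% of all listed sites). Without TNFRSF11A the share was 73.5% of 34 sites. Limma gave an unadjusted p under 0.05 at 64 of the 86 sites (74.4%, beside the background of 51.9%), and at 0 after adjustment. Of these 64 sites 44 belonged to TNFRSF11A, and without that gene it was 20 of 34 sites (58.8%). Sites of 1 gene share cows and neighbourhood, so these counts are not of independent sites.

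TNFRSF11A (RANK), the receptor of TNFSF11, had 52 sites (ENSBTAG00000007569, chromosome 24, 60733395 to 60790306), 41 higher and 11 lower. Inside the gene 23 sites were higher and 10 lower, and past the gene end all 14 were higher. Over the 41 higher sites MSG cows ran from 46.9 to 91.1% with a median of 54.7%, and MRG cows from 0.135 to 57.2% with a median of 21.1%. The means were 61.8% ± 18.1 and 23.5% ± 22.5 (SD, n = 6). MRG replicate 3, at 57.2%, was the highest of its group and lay within the MSG range.

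Over the 11 lower sites of TNFRSF11A the ranges were 15.9 to 93.3% in MSG with a median of 50.1% and 60.2 to 96.7% in MRG with a median of 93.9%. The means were 50.4% ± 25 and 83.8% ± 17.6 (SD, n = 6). Most higher sites had a cow at 0, and among the 3 TNFRSF11A sites with no cow at 0 the majority was lower in MSG. The ligand TNFSF11 and its receptor thus both had more higher than lower sites among all those listed.

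TNFRSF13C (BAFF receptor), which keeps mature B cells alive, had 9 sites, all higher (ENSBTAG00000026489, chromosome 5, 112905857 to 112907803). They lay upstream of the start (5 sites), inside the gene (2) and just past its end (2). Their mean ran from 83.1 to 93.5% in MSG cows with a median of 87.9%, and from 1.14 to 85.5% in MRG cows with a median of 41.5%. The means were 87.6% ± 3.75 and 42.2% ± 26.9 (SD, n = 6), a difference of 45.4 points. Only MRG replicate 2, at 85.5%, reached into the MSG range. MSG cows were alike at this gene, and MRG cows were spread over most of the scale.

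The other B cell receptors of this ligand system did not share 1 direction. TNFRSF13B (TACI) had 5 higher sites and 2 lower, and TNFRSF17 (BCMA) had 1 lower site. TNFRSF1A, the main receptor of TNF, had 4 sites, all higher, with means of 84.0% ± 9.12 in MSG cows and 53.5% ± 26.4 in MRG cows (SD, n = 6), with ranges of 71.2 to 95.6% and 24.6 to 82.1% that overlapped. TNFRSF21 had 4 higher and 3 lower sites, and all 3 of its sites with no cow at 0 were called higher. TNFRSF19 had 3 higher sites and 1 lower, and TNFRSF6B, a decoy receptor, and TNFRSF9, a stimulator of T cells, had 1 lower site each.

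In promoters 28 of the 86 genes had a listed site, and 31 of the 57 promoter sites were higher in MSG. The 4 promoter sites of TNFRSF13C averaged between 74.6 and 91.6% in MSG cows and between 0 and 83.0% in MRG cows, with means of 82.2% ± 6.16 and 39.6% ± 26.6 (SD, n = 6). All 4 lay downstream of the start of this short gene, 1.87 to 2.11 kb from it, and 2 of them past the gene end. The 3 of IL22 averaged 91.9% ± 11.4 and 58.3% ± 26.1. In the opposite direction the 4 of IL22RA2 ran from 0 to 42.3% in MSG and from 0 to 83.4% in MRG, with means of 7.06% ± 17.3 and 45.6% ± 27.7 (SD, n = 6). MSG replicate 3 was the highest of its group there, and the median MSG cow stood at 0.

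Both promoter sites of CXCL2 were lower in MSG, with means of 44.5% ± 23.2 and 79.7% ± 8.72 (SD, n = 6). At the 3 promoter sites of CCL21 every MRG cow stood at 0 and the MSG cows ran from 0 to 52.8%. The 4 of CCL26 and the 4 of IL15RA were each 1 higher and 3 lower, with 51.8% ± 21.2 in MSG against 74.9% ± 11.1 in MRG at CCL26 and 42.9% ± 19.0 against 59.1% ± 28.0 at IL15RA (SD, n = 6). The 4 of IL15RA all lay downstream of the start, 1.51 to 2.72 kb from it. Among the genes described with their promoter means, the 2 groups of cows separated completely only at IL18BP, which rests on 1 site.

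**Figure D4:**
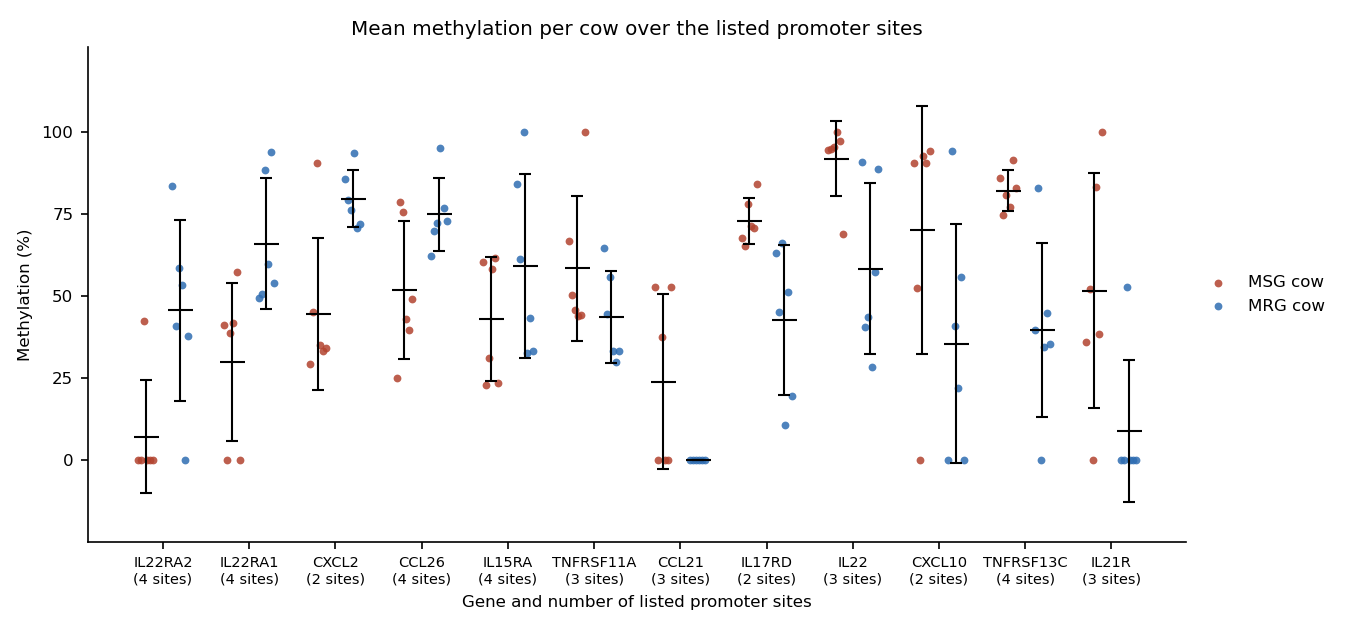
Mean percent methylation in each cow over the promoter sites of the 12 fully described genes with 2 or more of them, with the 6 cows of each group as points and the mean with its SD as a bar. Promoter sites are those within 3 kb of the start on either side, and those of TNFRSF13C and IL15RA all lie downstream of it. MSG cows lie between 74.6 and 91.6% at TNFRSF13C, where MRG cows run from 0 to 83.0%, and at CCL21 all MRG cows lie at 0.

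At 10 sites of 9 genes the cows of the groups did not overlap, 7 of them higher and 3 lower in MSG. As the share of such sites was below that of all listed sites, they are given as a description. The largest difference was at chr24:60783941 in an intron of TNFRSF11A, where MSG cows ran from 38.5 to 88.9% with a median of 45.1%, and MRG cows from 0 to 25% with a median of 0. The means were 51.6% ± 19.1 and 6.25% ± 10.5 (SD, n = 6). Limma gave an unadjusted p of 0.00416 and an adjusted p of 0.0800, and the two-sided exact permutation test gave 0.00216, the smallest that 924 regroupings of 12 cows allow. Another intronic TNFRSF11A site, chr24:60747581, stood at 55.3% ± 16.0 in MSG and 15.3% ± 17.5 in MRG.

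Upstream of IL22RA1, at chr2:128750226, the means were 61.6% ± 25.7 and 19.1% ± 11.6 (SD, n = 6), the reverse of most sites of that gene. Upstream of TNFRSF13C, at chr5:112911561, MSG cows ran from 65 to 85% and MRG cows from 0 to 56.3%, with means of 73.7% ± 6.90 and 34.3% ± 21.4. Past the end of IL20RA, at chr9:74966062, 5 MSG cows averaged 71.8% ± 11.3 and 6 MRG cows 42.5% ± 9.72. These sites lay in the same direction as the majority at their gene except the one at IL22RA1, and those of CCL21 and IL16 below.

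In an intron of IL3RA, at chr3:119493533, all 5 MRG cows with a value stood at 100% and the 6 MSG cows ran from 28.6 to 85.7%. Past the end of CCL21, at chr8:76077166, the means were 69.3% ± 23.5 and 97.8% ± 3.47 (SD, n = 6). In an intron of IL16 5 MSG cows averaged 90.6% ± 6.29 and 6 MRG cows 62.3% ± 9.98 at chr21:27053972. Near IL24, at chr16:4678003, the means were 89.9% ± 8.10 and 61.9% ± 8.51. With the IL18BP site these complete the 10, and 6 of the 10 had no cow at 0, with adjusted p-values of limma from 0.0409 to 0.0458 in that set of sites, save the 0.05005 of IL18BP. Tested over all listed sites, the same 6 had unadjusted p-values of limma from 0.0672 to 0.0931 and adjusted ones from 0.105 to 0.120.

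**Figure D5:**
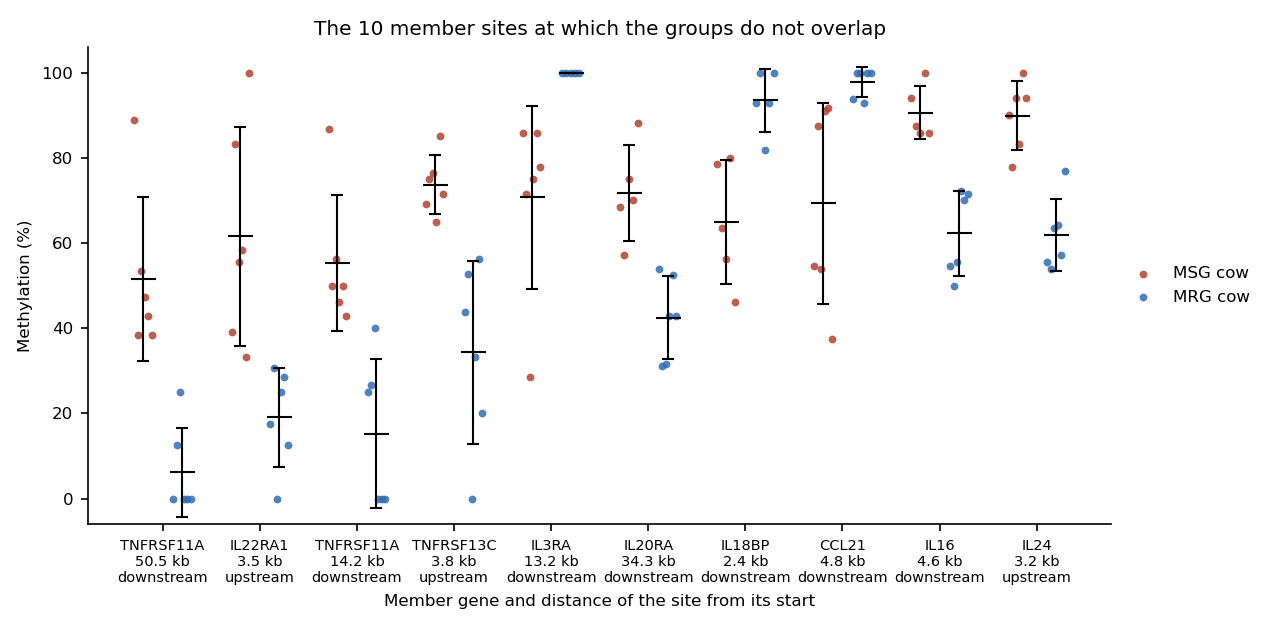
Percent methylation in each cow at the 10 sites whose groups did not overlap, with the 6 cows of each group (5 where a value was missing) as points and the mean with its SD as a bar. At the TNFRSF11A site with the largest difference MRG cows lie at or below 25% and MSG cows at or above 38.5%, and the sites of IL3RA, IL18BP and CCL21 are lower in MSG.

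Single cows of a group recurred at the edge of its range. MSG replicate 3 was the lowest of its group at the higher sites of IL20RA, TNFRSF11A, IL21R, IL22RA1, CCL26, CXCL10, CXCL2 and IL15RA. At the lower sites of IL20RA, IL22RA2, CXCL10, CXCL2 and IL3RA it was the highest. In the other direction, it was the highest of its group at IL22. MSG replicate 6 was the highest at the higher sites of IL21R, IL15, IL22RA1, CCL26, IL17RD, CXCL10 and CXCL2. It was the lowest at the lower sites of IL21R, IL15, IL17RD, CXCL10, CCL21 and CXCL2. In the other direction, it was the lowest at IL22 and the highest at the lower sites of CCL1 and TNFRSF11A. MSG replicates 1, 3 and 6 carried the difference at CCL21. Averaged over all 589 sites, the means of the cows lay between 50.8% in MRG replicate 1 and 58.5% in MSG replicate 1. The share of these sites at exactly 0 was lowest in MRG replicate 3, at 13.7%, and highest in MRG replicate 1, at 27.4%. Sites of the same gene that lay over 1 kb apart were compared over the cows, at genes with 8 or more sites. The median correlation between pairs of sites, signed by direction, was 0.82 at CCL1, 0.74 at IL20RA, 0.71 at TNFRSF11A, 0.90 at CCL21 and 0.91 at TNFRSF13C, over 12 cows. It was lowest at IL17REL (0.37), IL33 (0.53) and IL15 (0.57). Between sites on different chromosomes it was 0.35, close to the value at IL17REL, and all of these sites share their selection on the group difference.

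Related genes outside the symbol patterns were counted in the same way. Of 42 other cytokine, TNF family and chemokine genes, such as TNF, CD40 and the colony stimulating factors, 23 had a site, 62 sites higher and 44 lower (58.5% higher). In this list CSF2RB alone held 30 of the higher sites and 2 of the lower. By the majority of their sites 9 genes of the list were higher and 12 lower. Of 64 genes that carry the signal onward, such as the JAK, STAT, SOCS and NF-kB genes, 25 had a site, 109 higher and 61 lower (64.1% higher). After adjustment 0 sites of either list passed limma, beside 46 (43.4%) and 84 (49.4%) at an unadjusted p under 0.05, both below the background of 51.9%.

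Markers of blood cells were listed beside these genes. Of all listed sites 52.7% were higher in MSG. Natural killer cell markers had 45 higher and 7 lower sites, 24 of the higher ones at NCAM1 (of its 26 sites), in 5 of 6 listed genes. PRF1 alone of these had more lower than higher sites (1 higher, 2 lower). T cell markers had 21 higher and 22 lower sites in 5 of 8 genes, which differed in direction. CD4 had 12 lower sites only, CD28 had 1 higher and 2 lower, and CD8A had 2 higher and 3 lower. CD3E had 14 higher and 4 lower, and CD5 had 4 higher and 1 lower. B cell markers had 6 higher and 4 lower in 5 of 7 genes, and myeloid and granulocyte markers 10 higher and 1 lower in 2 of 9. Of those myeloid and granulocyte sites MPO held 9 of the higher ones and the 1 lower. The part of cell composition in the differences at interleukin, chemokine and TNF family genes was not tested.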

How the data were processed

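Per the file headers, the authors deposited percent methylation per cow for listed CpG cytosines by strand, and for listed windows of 500 bases, with their difference, p-value and q-value, gene symbol, annotation class and distance to the transcription start. The build was ARS-UCD1.2, and the tools named were ChIPseeker 1.32.1, DRAGEN, Bismark and fastp 0.23.1, without their roles, per the submitters' processing notes. The authors' own test is not given in the sources used here, and neither is the annotation release. The window table also held 36 columns of coverage and read counts whose names match no cow, so they and depth were not used, and a test on read counts was replaced by limma on percent values.

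Limma 3.58.1 (R 4.3.3) compared MSG with MRG at every listed site, 1 value per cow, with no covariate. The test was two-sided, and p-values were adjusted by the Benjamini-Hochberg method over all 196275 sites. Each site had at least 5 cows per group, and 471 of the 589 had all 12. The alternatives were an exact permutation test over cows, an arcsine scale, complete sites, sites with no cow at 0 and leaving out each cow. The code was tested on simulated data. Replicate numbers pair no cows. The permutation test set the difference of the groups against regroupings of the cows. Limma drew the spread between cows at each site towards a value shared by all tested sites. Its standard errors were therefore much alike. They were 15.1 points at the IL24 site (SD 8.10 and 8.51) and 15.6 at the IL22RA1 site chr2:128750226 (SD 25.7 and 11.6).

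Fully described genes were the 12 with the most sites, those with the most promoter sites (up to 8), those with the 6 largest differences without overlap (1 per gene) and the 5 with the most sites in the gene or promoter. Members of the other families are given by counts, or by values where a single direction or a role was described after the values were seen. The members and lists were chosen with earlier results of these data known. Values of some single genes are not reported here, although the counts include them. No sequences are printed.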

Additional observations from a re-analysis of the deposited data

Results flagged for a closer look

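The cow means of the named genes, and their sites without overlap, gave 76 groups of 6 cows or nearly so, in which 10 had 1 cow far from the others by Dixon's criterion (a gap over 0.625 of the range for 6 cows). Chance gives about 1 in 20, and the groups are not independent because sites and genes share cows.

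MSG replicate 3 was that cow in 4 of them. It stood at 47.4% over the higher sites of IL20RA (the others 79.4 to 87.9%), at 82.3% over the lower sites of CXCL2 (35.4 to 49.6%), at 54.5% at the higher site of IL15RA (90.9 to 100%) and at 28.6% at the IL3RA site without overlap (71.4 to 85.7%). Each of these values lay towards the MRG cows except the one at the IL3RA site, which lay away from them.

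In MSG, replicate 6 stood at 51.2% over the sites of IL22 (80.8 to 96.7%) and replicate 1 at 88.9% at the TNFRSF11A site chr24:60783941 (38.5 to 53.3%). In MRG, replicate 3 stood at 35.5% over the higher sites of IL21R (6.13 to 11.2%) and at 52.4% over the lower sites of IL17RD (87.3 to 99.4%). MRG replicate 4 stood at 61.3% over the lower sites of IL21R (79.2 to 85.3%), and MRG replicate 2 at 52.1% over the lower sites of IL15 (79.1 to 91.6%).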

How the results depend on the processing

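The count of 0 sites passing limma was also 0 with the permutation test, on the arcsine scale, with complete sites and without each cow in turn. It became 71 when only the 103 sites with no cow at 0 were tested among all such sites. The share of sites higher in MSG, 53.7%, moved to 58.3% at sites with no cow at 0 (57.3% of all such listed sites) and to 58.0% at the 119 sites that differed by 40 points or more (50.5%). It moved to 48.7% when each of 341 runs of neighbouring sites with a majority counted once, and to 48.5% without the 5 genes with the most sites, an alternative chosen after seeing the data. With 1 vote per gene it was 53.2%, and without CCL1 it was also 53.2%. Leaving out 1 cow reversed none of 384 differences of named genes. A reversal could hardly arise, because these were means over sites sorted by direction in the same cows, so this count does not test stability. Among the differences 2 fell by over 1.5 times: IL15 (higher sites, above) and the lower site of IL20RB, from -34.9 to -21.0 points without MRG replicate 6. Among sites with no cow at 0 the majority direction turned at TNFRSF11A, IL22RA1, IL17RD, IL22RA2, CXCL10, CCL21 and IL15RA, 7 of the 17 fully described genes with such a site, and the other genes were not counted. Alternatives for windows gave no value because no window was annotated to these genes, and no coverage minimum could be applied. Sites outside the authors' selection were not analysed here.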
